A study of Arabidopsis thaliana with 6 samples.

Results

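Cysteine-rich receptor-like kinases (CRKs) were followed in fully mature leaves of the mutant *flpl1* and of Col-0, through 10 genes that were selected by their locus numbers out of 32243 genes listed: *CRK4* (AT3G45860), *CRK5* (AT4G23130), *CRK6* (AT4G23140), *CRK7* (AT4G23150), *CRK8* (AT4G23160), *CRK10* (AT4G23180), *CRK11* (AT4G23190), *CRK13* (AT4G23210), *CRK14* (AT4G23220) and *CRK15* (AT4G23230). The *flpl1* group was the line labelled C30-81-as6, an Arabidopsis thaliana mutant obtained from Col-0 by carbon-ion irradiation, which flowers late, has rosette leaves without petioles and carries an additional copy of Chr. 2. The 3 *flpl1* plants had been chosen by their phenotype and by DNA content, and the 3 Col-0 plants were of the same age in days, so that the plants were matched by age and not by developmental stage. Each plant gave 1 RNA-seq library, with no treatment in either group. The mutant is a single line that carries other irradiation-induced changes besides the additional chromosome, and effects of the extra Chr. 2 cannot be told apart from those of the rest of its genome. None of the 10 genes is on Chr. 2: *CRK4* is on Chr. 3 and the other 9 are on Chr. 4.

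CRKs are plasma membrane proteins with an outer region of repeated DUF26 domains, each held together by conserved cysteines, a single membrane-spanning segment and an inner serine/threonine kinase. In Arabidopsis leaves many of them are known to respond to pathogens, to salicylic acid (SA) and to reactive oxygen species (ROS), and high levels of several members provoke cell death resembling the hypersensitive response. The GO terms in the deposited tables assigned defense response to bacterium and plasma membrane to 10 of 10 genes, programmed cell death and response to SA to *CRK4* and *CRK5*, response to ROS to *CRK6* and *CRK7*, response to oxidative stress to *CRK11*, and the plant-type hypersensitive response to *CRK13*.

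The first cysteine motif of the outer region is shown for each gene because it is the feature that gives the family its name, and because it shows which genes resemble each other. The coding stretches were read from TAIR10.1 (RefSeq), 5′ to 3′ on the strand of the gene, and the capitals mark the codons of the cysteines in the spacing C-X8-C-X2-C.
CRK4 (chr3:16865739-16865777, minus strand): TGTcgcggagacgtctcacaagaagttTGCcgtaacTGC
CRK5 (chr4:12119841-12119879, minus strand): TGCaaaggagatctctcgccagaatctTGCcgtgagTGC
CRK6 (chr4:12121652-12121690, plus strand): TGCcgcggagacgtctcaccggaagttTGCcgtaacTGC
CRK7 (chr4:12125983-12126021, plus strand): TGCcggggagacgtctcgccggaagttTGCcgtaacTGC
CRK8 (chr4:12131708-12131746, plus strand): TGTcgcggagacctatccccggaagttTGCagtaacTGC
CRK10 (chr4:12138456-12138494, plus strand): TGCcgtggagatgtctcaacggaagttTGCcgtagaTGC
CRK11 (chr4:12143435-12143473, minus strand): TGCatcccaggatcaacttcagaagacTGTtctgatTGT
CRK13 (chr4:12151146-12151184, minus strand): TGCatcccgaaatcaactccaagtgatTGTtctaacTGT
CRK14 (chr4:12156618-12156656, minus strand): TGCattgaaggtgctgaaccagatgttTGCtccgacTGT
CRK15 (chr4:12159995-12160033, minus strand): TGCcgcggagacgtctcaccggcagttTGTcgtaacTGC

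Every stretch lay within 1 exon, and 2 copies of the motif were found in each of the 10 coding sequences. Over the 45 pairs of coding sequences the identity of the aligned bases lay between 60.8% and 87.5%, with a median of 68.2%. The closest pair was *CRK6* and *CRK8*, with 87.5%, followed by *CRK7* and *CRK8* with 84.4% and *CRK6* and *CRK7* with 83.3%. *CRK15* and *CRK10* belonged with these, each 75.5% or more identical to every other gene of that set. *CRK11*, *CRK13* and *CRK14* were 69.0% to 72.1% identical to each other, and none of the other 7 was more than 68.2% identical to any of them. *CRK4* was nearest to *CRK15* (74.4%) and *CRK5* nearest to *CRK4* (74.3%). The annotated coding sequence of *CRK8* has 1043 codons, against 627 in *CRK15* and 680 in *CRK6*, the shortest and the longest of the others.

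Near-identical stretches bear on the counts of some of the genes. Of all windows of 75 bases in the exons, the shortest read length that trimming kept, 15.0% in *CRK6*, 12.2% in *CRK8* and 12.9% in *CRK13* occurred elsewhere in the genome, whereas none did in the other 7 genes. The repeated windows of *CRK6* were shared with *CRK8* (306 of 313) and with *CRK9* (7 of 313), and those of *CRK13* with *CRK22* (290 of 290). Of the repeated windows of *CRK8*, 306 of 413 were shared with *CRK6*, and the others with no CRK gene. The handling of reads with several matches is not given in the sources used here, so the counts of *CRK6*, *CRK8* and *CRK13* are uncertain in those stretches. None of the 10 genes overlapped another listed gene.

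The upstream sequences are shown for the 5 genes that rose or fell in *flpl1*, and for *CRK11*, which held most copies of the W-box core, the element TTGAC that WRKY transcription factors of the SA response are known to bind. They end at the start site of the RefSeq annotation of TAIR10.1, run 5′ to 3′ on the strand of the gene and hold 250 bases, except for *CRK15*, where the neighbouring gene leaves 198. Capitals mark the W-box core on either strand (TTGAC or GTCAA).
CRK4 (chr3:16866262-16866511, minus strand): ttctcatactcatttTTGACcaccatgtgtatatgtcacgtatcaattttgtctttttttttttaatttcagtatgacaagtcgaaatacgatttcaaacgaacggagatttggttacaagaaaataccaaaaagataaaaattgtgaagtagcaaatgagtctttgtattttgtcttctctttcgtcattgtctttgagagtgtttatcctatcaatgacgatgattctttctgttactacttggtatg
CRK5 (chr4:12120221-12120470, minus strand): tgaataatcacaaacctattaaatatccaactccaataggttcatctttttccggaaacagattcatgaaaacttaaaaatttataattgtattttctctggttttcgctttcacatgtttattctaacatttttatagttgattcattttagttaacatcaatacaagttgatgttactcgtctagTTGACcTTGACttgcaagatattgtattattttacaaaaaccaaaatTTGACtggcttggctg
CRK6 (chr4:12121119-12121368, plus strand): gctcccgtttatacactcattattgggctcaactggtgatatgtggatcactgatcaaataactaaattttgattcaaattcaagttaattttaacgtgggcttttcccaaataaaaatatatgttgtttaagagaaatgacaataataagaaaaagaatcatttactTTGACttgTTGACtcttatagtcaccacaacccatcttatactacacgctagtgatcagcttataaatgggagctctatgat
CRK8 (chr4:12129235-12129484, plus strand): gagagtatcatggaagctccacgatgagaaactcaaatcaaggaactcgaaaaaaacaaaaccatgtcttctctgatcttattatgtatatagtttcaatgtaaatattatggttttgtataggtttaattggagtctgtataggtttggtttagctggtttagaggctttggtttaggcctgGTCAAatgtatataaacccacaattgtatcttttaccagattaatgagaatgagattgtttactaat
CRK15 (chr4:12160280-12160477, minus strand): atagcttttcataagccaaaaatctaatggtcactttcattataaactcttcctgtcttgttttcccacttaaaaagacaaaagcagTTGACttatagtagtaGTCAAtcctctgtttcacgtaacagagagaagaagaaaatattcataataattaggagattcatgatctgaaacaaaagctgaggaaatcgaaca
CRK11 (chr4:12143859-12144108, minus strand): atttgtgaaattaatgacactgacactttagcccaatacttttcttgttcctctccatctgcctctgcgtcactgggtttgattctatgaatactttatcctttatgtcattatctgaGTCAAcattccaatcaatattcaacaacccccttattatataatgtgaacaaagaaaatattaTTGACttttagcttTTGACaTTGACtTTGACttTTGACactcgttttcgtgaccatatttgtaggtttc

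The W-box core was found upstream of 9 of the 10 genes, with *CRK13* as the exception, and in 44.9% of the 27443 upstream windows of 250 bases of annotated genes. *CRK11* held 6 copies, *CRK5* held 3, and *CRK6*, *CRK14* and *CRK15* held 2 each. The RefSeq gene bounds often differ from the deposited ones (55.7% of the listed IDs share a start or an end), and 210 of the 250 bases of the *CRK14* window lay inside the deposited *CRK14* gene, while those of the other 9 genes lay outside theirs. The core of the element bound by TGA factors (TGACG on either strand, which can share letters with the W-box core) was present upstream of 4 genes, against 18.6% of all windows. These matches are descriptions of the sequence and not binding sites. Genes with the W-box core were among those that rose (*CRK5*, *CRK15*), those that fell (*CRK4*, *CRK6*, *CRK8*) and those that were not called.

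Across the 6 libraries, 19465078 to 24633070 reads were assigned to genes, and libraries of the same group correlated more closely (r between 0.962 and 0.984 on log2 values across genes) than libraries of unlike groups (0.774 to 0.855). Leaf marker genes were high in every library, with a summed FPKM (fragments per kilobase of exons and scaled to the library total) of 42979 to 48070 in *flpl1* against 11171 to 30109 in Col-0 plants, of which replicate 1 had the highest value. In the 4 root hair markers the summed FPKM was at most 0.02 and 3 of the genes were at 0 in all libraries, the 4 flower markers summed to 2.4 to 3.04 against 3.52 to 8.54, with *AG* called up and *PI* and *SEP3* called down, the 2 pollen markers to 0 to 1.44 against 5.21 to 13.8, and *SAG12*, a gene of senescent leaves, was at 0 in all libraries. The part of these differences in the CRK results was not tested, and in such bulk samples fewer cells of a type cannot be told apart from less RNA per cell.

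All 10 CRK genes passed the filter on low counts and were tested. A gene was called when its Benjamini-Hochberg adjusted p in edgeR's quasi-likelihood test was under 0.05 and its fold change was at least 2. Fold changes are those of the fit, and not ratios of mean FPKM. *CRK5* and *CRK15* rose in *flpl1*, *CRK4*, *CRK6* and *CRK8* fell, and 5 genes were not called. Of all 18638 tested genes, 19.8% were called up and 14.4% down, beside 2 and 3 of the 10 CRK genes. The *flpl1* libraries lay above all Col-0 libraries in FPKM for 3 genes (29.8% of all tested genes) and below them for 4 (38.4%), shares near the background. FPKM is scaled to the library total alone, whereas the fit also used TMM factors (0.929 to 0.98 in *flpl1*, 0.966 to 1.129 in Col-0). These counts and the calls therefore rest on different scalings. The median log2 fold change of the 10 genes was 0.08, against 0.00 over all tested genes. The genes did not move in one direction, and each is given below by its known role.

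**Figure D1:**
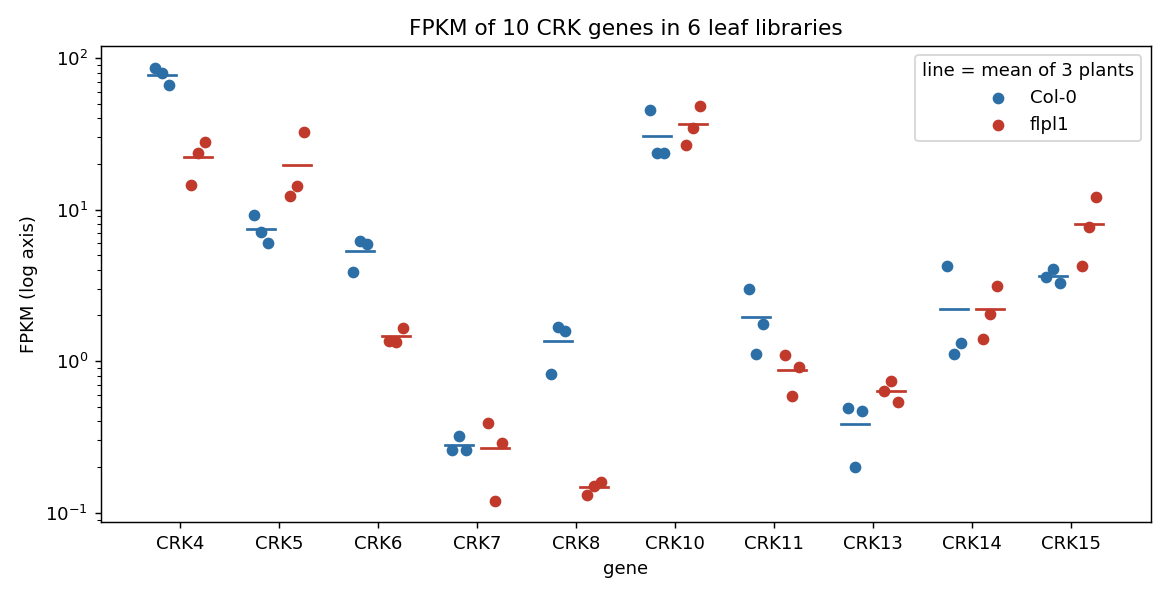
FPKM (vertical axis, log scale) of the 10 CRK genes along the horizontal axis, with 1 point for each of 3 Col-0 plants (blue) and 3 *flpl1* plants (red) and a line at each group mean. The red points of *CRK4*, *CRK6* and *CRK8* sit below all blue points, those of *CRK5* and *CRK15* sit above them, and *CRK7*, *CRK10* and *CRK14* overlap.

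*CRK4* and *CRK5*, a pair linked to SA and to programmed cell death, moved in opposite directions. *CRK4*, whose product associates with the flagellin receptor FLS2 and enhances pattern-triggered immunity when overproduced, had FPKM values of 14.46, 23.67 and 28.1 in the *flpl1* plants and 86.49, 79.38 and 66.5 in the Col-0 plants. It had the highest mean of the 10 genes in Col-0, and its groups did not overlap. The means were 22.1 ± 6.96 and 77.5 ± 10.1 (SD, n = 3 each), a 3.2-fold fall (log2 fold change -1.68, SE 0.25, adjusted p = 0.00111).

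*CRK5*, which on overexpression is known to trigger cell death and to raise resistance to bacteria, showed FPKM values of 12.37, 14.22 and 32.43 in *flpl1* against 9.2, 7.12 and 5.98 in Col-0. All *flpl1* plants were above all Col-0 plants, with replicate 3 of *flpl1* far above the other two. The mean rose from 7.43 ± 1.63 to 19.7 ± 11.1 (SD, n = 3 each), that is 2.87-fold (log2 1.52, SE 0.38, adjusted p = 0.00983). Without *flpl1* replicate 3 the log2 fold change was 1.0, just short of the 2-fold limit, with an adjusted p of 0.0137.

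The next genes are the closely related *CRK6*, *CRK7* and *CRK8*. *CRK6* and *CRK7* are known to act in the tolerance of extracellular ROS, and *CRK6*, like *CRK4*, associates with FLS2. The FPKM of *CRK6* was 1.36, 1.34 and 1.66 in *flpl1* against 3.89, 6.2 and 5.89 in Col-0. The *flpl1* plants were close to each other and all below Col-0, and the mean fell from 5.33 ± 1.25 to 1.45 ± 0.179 (SD, n = 3 each), a 3.27-fold fall (log2 -1.71, SE 0.2, adjusted p = 0.000345).

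*CRK7* lies next to *CRK6* on the same strand, was counted 5 to 19 times in a library, and its groups overlapped. Its FPKM was 0.39, 0.12 and 0.29 in *flpl1* against 0.26, 0.32 and 0.26 in Col-0, and the log2 fold change was 0.11 with a 95% interval of -1.0 to 1.21 (adjusted p = 0.86). A 2-fold rise is within this interval and a 2-fold fall is at its edge. *CRK8*, the next gene on that strand, had the largest change of the 10. It was counted 12, 12 and 14 times in *flpl1* and 79, 152 and 119 times in Col-0. Its FPKM of 0.13, 0.15 and 0.16 in *flpl1* against 0.82, 1.68 and 1.57 in Col-0 gave an 8.11-fold fall (log2 -3.02, SE 0.33, adjusted p = 0.000302). The exons of *CRK8* hold 3890 bases, and its first cysteine motif begins at position 12131708, while the listed gene begins at 12129485. Counts per gene do not show whether these reads came from the receptor part or from the stretch ahead of the motif. *CRK6* and *CRK8* share sequence with each other, as given above, so that part of their reads could be exchanged between them, while *CRK7* has no such windows. The repeated windows of *CRK8* that no other CRK gene holds add to the uncertainty of its counts.

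*CRK10* and *CRK11*, which face each other tail to tail with 110 bases between them, are known as genes induced by SA and pathogens. *CRK10* showed FPKM values of 26.53, 34.65 and 48.5 in *flpl1* against 45.24, 23.7 and 23.47 in Col-0. The groups overlapped through Col-0 replicate 1, the library with the highest leaf marker sum in Col-0. The log2 fold change was 0.36 (SE 0.35, 95% interval -0.45 to 1.16, adjusted p = 0.395), and without Col-0 replicate 1 it was 0.83 with an adjusted p of 0.0157, still under 2-fold.

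*CRK11*, annotated to oxidative stress and bearing the 6 W-box cores printed above, had FPKM values of 1.09, 0.59 and 0.92 in *flpl1* against 2.98, 1.11 and 1.75 in Col-0. In FPKM all *flpl1* plants were below all Col-0 plants, but by a small margin to Col-0 replicate 2. The count of *CRK11* was 59 in that library and 60 in *flpl1* replicate 1. FPKM leaves out the TMM factors of the fit, which were 1.129 and 0.942 for these libraries. The separation was seen in FPKM and does not carry over to the scaling of the fit. The log2 fold change of -1.05 (SE 0.45, 95% interval -2.11 to 0.00) missed the threshold with an adjusted p of 0.0763, while DESeq2 called it at 0.0499. Leaving out Col-0 replicate 2 gave -1.38 and an adjusted p of 0.0227, which was a call, whereas leaving out Col-0 replicate 1, the highest plant, gave -0.52 (adjusted p = 0.267), and leaving out *flpl1* replicate 2, the lowest, gave -0.85 (adjusted p = 0.205).

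The last members are *CRK13*, *CRK14* and *CRK15*, which are read from the minus strand. *CRK13*, whose overexpression is known to cause hypersensitive-like cell death and resistance to Pseudomonas syringae, was low in all plants, with FPKM values of 0.63, 0.74 and 0.54 in *flpl1* against 0.49, 0.2 and 0.47 in Col-0. The *flpl1* plants lay above the Col-0 plants without overlap, yet the log2 fold change of 0.86 was not called (SE 0.44, 95% interval -0.17 to 1.89, adjusted p = 0.124). Its counts, from 11 to 37 in a library, limit the precision, and an unknown part of them could belong to *CRK22*. That gene was far higher, with a mean FPKM of 25.9 in *flpl1* and 19.6 in Col-0 (log2 0.54, adjusted p = 0.0182, not called). How much of the *CRK13* difference came from *CRK22* reads was not tested.

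*CRK14* had FPKM values of 1.39, 2.06 and 3.12 in *flpl1* against 4.23, 1.11 and 1.31 in Col-0. The highest and the lowest value were both from Col-0, and the log2 fold change was 0.06 (SE 0.58, 95% interval -1.30 to 1.43, adjusted p = 0.933). This value turned on single plants: without Col-0 replicate 1 it was 1.05 with an adjusted p of 0.0375, a call, and without *flpl1* replicate 3, Col-0 replicate 2 or Col-0 replicate 3 it was -0.25, -0.30 and -0.23.

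*CRK15*, which follows *CRK14* on the same strand, had FPKM values of 4.26, 7.62 and 12.18 in *flpl1* against 3.58, 4.03 and 3.28 in Col-0. The Col-0 plants were close together, and the lowest *flpl1* plant was only just above them. The mean rose from 3.63 ± 0.377 to 8.02 ± 3.98 (SD, n = 3 each), 2.43-fold (log2 1.28, SE 0.34, adjusted p = 0.0126). Without *flpl1* replicate 3 the log2 fold change was 0.89 (adjusted p = 0.0319), and with limma on log2(FPKM + 1) it was 0.87 (adjusted p = 0.0372), both under 2-fold.

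Within *flpl1*, replicate 3 was the highest plant for 7 of the 10 genes, where 45.0% of all tested genes were highest in that plant. Within Col-0, replicate 1 was the highest for 6 of the 10, against 24.9% of all tested genes. These counts were not tested. No member was called up without *flpl1* replicate 3, whereas *CRK4*, *CRK6* and *CRK8* were called down whichever library was left out. The spread of the fitted values is shown for each gene in the plot of fold changes under the alternatives.

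**Figure D2:**
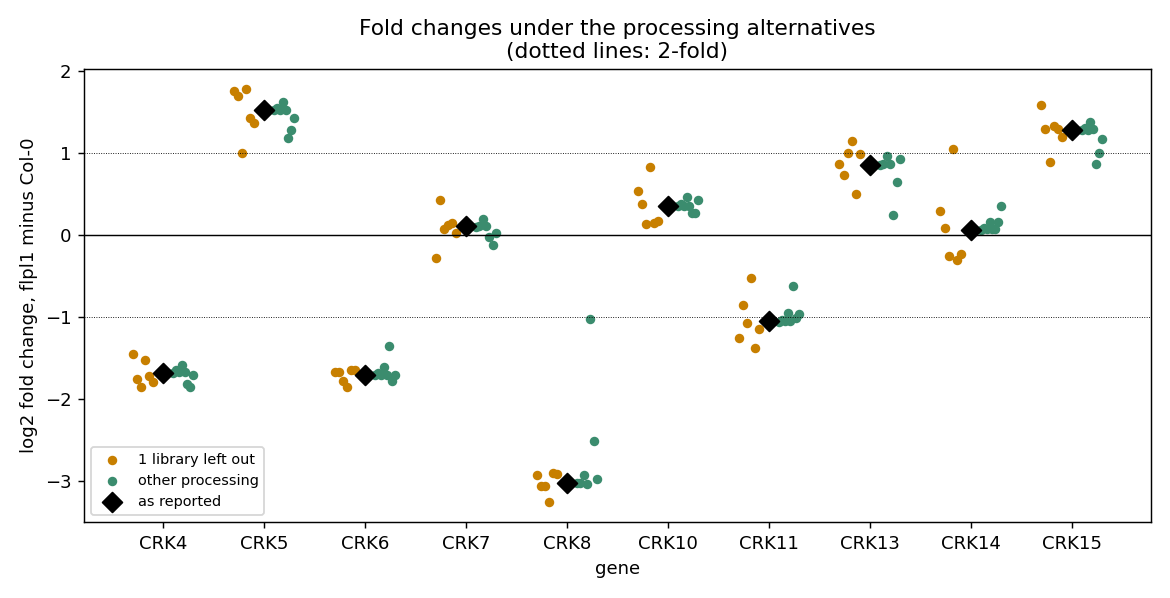
Log2 fold change (*flpl1* minus Col-0, vertical axis) of the 10 genes as reported (black diamonds), with each of the 6 libraries left out in turn (orange) and under other processing (green), with dotted lines at 2-fold. *CRK4*, *CRK6* and *CRK8* stay below the lower dotted line under every setting drawn, with *CRK8* at -1.02 under limma on log2(FPKM + 1), whereas *CRK7* and *CRK14* lie on both sides of 0.

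Summed over the 10 genes, the FPKM was 62.6, 85.2 and 127.9 in the *flpl1* plants and 157.2, 124.8 and 110.5 in the Col-0 plants, and these groups overlapped. Its make-up differed between the lines. *CRK4* provided 55.0% to 63.6% of the sum in Col-0 and 22.0% to 27.8% in *flpl1*. *CRK10* held the largest share in *flpl1*, 37.9% to 42.4%, against 19.0% to 28.8% in Col-0. The share of *CRK5* was 16.7% to 25.4% in *flpl1* and 5.41% to 5.85% in Col-0, and that of *CRK15* was 6.8% to 9.52% and 2.28% to 3.23%. For these 4 genes the shares of the groups did not overlap, which includes *CRK10*, although its FPKM did. Nor did those of *CRK6* (1.3% to 2.17% in *flpl1*, 2.47% to 5.33% in Col-0) and *CRK8* (0.125% to 0.208% and 0.522% to 1.42%). As shares add up to the whole, the fall of *CRK4* alone raises the shares of the others.

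**Figure D3:**
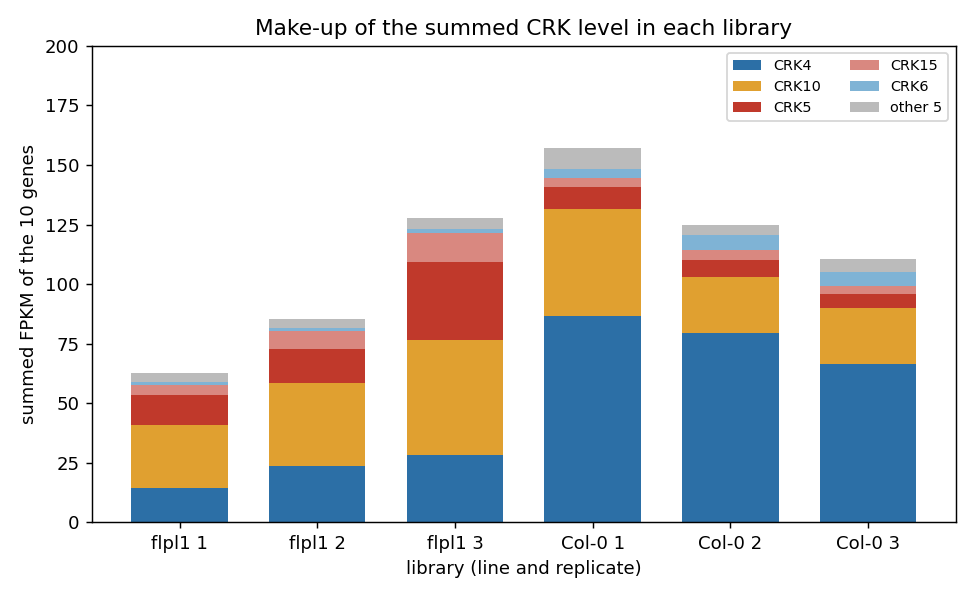
Summed FPKM of the 10 CRK genes (vertical axis, from 0) in each of 3 *flpl1* and 3 Col-0 libraries, divided into *CRK4*, *CRK10*, *CRK5*, *CRK15*, *CRK6* and the other 5 genes. *CRK4* fills 55.0% to 63.6% of the Col-0 bars and 22.0% to 27.8% of the *flpl1* bars, where *CRK10* is the largest part.

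In Col-0 the mean FPKM ran in the order *CRK4*, *CRK10*, *CRK5*, *CRK6*, *CRK15*, *CRK14*, *CRK11*, *CRK8*, *CRK13* and *CRK7*, from 77.5 down to 0.28. In *flpl1* the order was *CRK10*, *CRK4*, *CRK5*, *CRK15*, *CRK14*, *CRK6*, *CRK11*, *CRK13*, *CRK7* and *CRK8*, from 36.6 down to 0.147. *CRK8* moved from the eighth place to the last. Several neighbours were within their spread: in *flpl1* the ranges of *CRK10* (26.53 to 48.5), *CRK4* (14.46 to 28.1) and *CRK5* (12.37 to 32.43) overlapped, while in Col-0 the lowest *CRK4* value (66.5) was above the highest of *CRK10* (45.24). Further down in Col-0, *CRK6* (3.89 to 6.2) overlapped with *CRK5* (5.98 to 9.2) and with *CRK15* (3.28 to 4.03).

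The 9 genes on Chr. 4 belong to an array of 20 CRK genes, *CRK5* to *CRK24*, which spans 74.4 kb (chr4:12117541-12191977 in TAIR10) and holds 22 listed genes. Of the 20 genes, 19 were tested, 3 were called up, 6 down and 10 not at all, with a median log2 fold change of 0.02. The share called was 47.4%, beside 34.2% of all tested genes (19.8% up and 14.4% down). Genes called in opposite directions lay side by side in the array. At its left end *CRK5*, on the minus strand, and *CRK6*, on the plus strand, are arranged head to head with 1248 bases between the gene bodies, and *CRK5* rose while *CRK6* fell. The ratio of their FPKM was 9.1, 10.6 and 19.5 in the *flpl1* plants and 2.37, 1.15 and 1.02 in the Col-0 plants. On the log2 scale the ratios were 3.63 ± 0.58 and 0.49 ± 0.66 (SD, n = 3 each), a difference of 3.14 with p = 0.1 in a two-sided exact permutation test, the smallest p that 3 against 3 plants allow. This pair was picked after its values had been seen. Its genes had already separated the groups in opposite directions, so that the p was fixed by the choice. *CRK15* rose while *CRK16*, 231 bases away on the same strand and likewise named after its values were seen, fell (log2 -1.03, adjusted p = 0.00127).

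**Figure D4:**
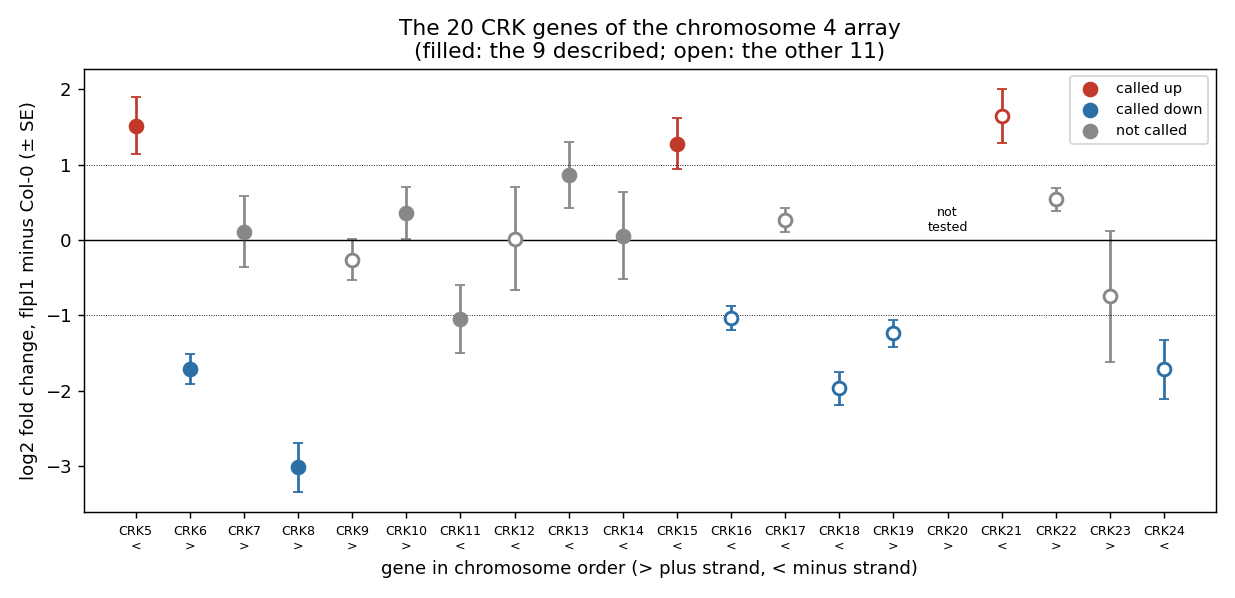
Log2 fold change (*flpl1* minus Col-0, vertical axis, with SE bars) of the CRK genes of the Chr. 4 array in their order on the chromosome, with the strand of each below its name; filled points are 9 of the 10 genes described and open points the other genes of the array. The called genes (red up, blue down) are spread along the array, with *CRK5* at 1.52 beside *CRK6* at -1.71.

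Outside the 10 genes, 31 further CRK genes were listed and 20 were tested, of which 1 was called up, 8 down and 11 not called (median log2 fold change -0.46). The share called was 45.0%, beside 34.2% of all tested genes (19.8% up and 14.4% down). Among those with the highest mean FPKM, *CRK18* fell from 88.8 ± 11.8 to 20.5 ± 6.91 (SD, n = 3 each, 3.91-fold, adjusted p = 3.11e-04), and *CRK19*, a further gene known to cause cell death when overexpressed, fell from 59.4 ± 3.4 to 22.9 ± 4.89 (2.35-fold, adjusted p = 9.04e-04). *CRK3* fell from 43.0 ± 7.07 to 15.0 ± 3.05 (2.62-fold, adjusted p = 9.16e-04). *CRK40* was not called, with 36.9 ± 9.03 in *flpl1* and 22.8 ± 7.15 in Col-0 (log2 0.81, adjusted p = 0.0414). *CRK21* was the one further gene that rose, from 16.0 ± 7.83 to 46.7 ± 4.6 (3.15-fold, adjusted p = 0.00533). *CRK36*, whose product also associates with FLS2 and which was chosen after its values were seen, fell 8.72-fold, from 7.7 ± 3.94 to 0.78 ± 0.15 (adjusted p = 5.92e-04). The genes that border the array gave no call: AT4G23120 on the left had a count of 0 in every library, and AT4G23330 on the right went from 17.9 ± 1.79 to 11.3 ± 0.599 FPKM (log2 -0.52, adjusted p = 0.00528, under 2-fold).

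The 3 tested genes outside the family with profiles nearest to *CRK4*, by the distance of centred log2 CPM over the 6 libraries, were AT1G26930 (distance 0.21), *ATL6* (AT3G05200, 0.23), a ubiquitin ligase, and AT4G11300 (0.33). Their log2 fold changes were -1.64, -1.69 and -1.59, beside -1.68 for *CRK4*, a closeness that follows from the way these genes were picked.

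The SA pathway, which is known to induce several CRK genes, was called in both directions: of 17 genes listed, 15 were tested, 3 were called up, 3 down and 9 not called. Over all tested genes 34.2% were called, which is the background for this list and for those below. *WRKY70*, a transcription factor that promotes SA responses, rose 2.36-fold, from 78.7 ± 6.49 to 169.7 ± 72.4 FPKM (SD, n = 3 each, adjusted p = 0.0104), and its highest library was *flpl1* replicate 3 with 237.41. *CBP60G*, an activator of SA synthesis, fell 16.5-fold, from 45.3 ± 19.3 to 2.52 ± 0.166 (adjusted p = 1.60e-04). The SA receptors *NPR1* (log2 -0.83, adjusted p = 0.00114) and *NPR4* (log2 0.25, adjusted p = 0.269) were not called. The remaining calls up were *PR1* (log2 6.02, adjusted p = 0.00401) and *PR5* (2.39, adjusted p = 0.00802). Those down were *PBS3* (-2.04, adjusted p = 0.00103) and *PAD4* (-1.34, adjusted p = 0.00202). *PR1*, which is on Chr. 2, was counted 29, 23 and 150 times in *flpl1* and 0, 0 and 3 times in Col-0.

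The pattern receptors and their signalling partners gave 0 calls in 10 tested genes with edgeR and with DESeq2. With either tool 4 of the 10 had an unadjusted p under 0.05, and all 4 stayed under 0.05 after adjustment and missed only the 2-fold limit. FLS2, the receptor with which the products of *CRK4* and *CRK6* are known to associate, was given for that reason and had 12.2 ± 3.81 FPKM in *flpl1* against 13.4 ± 2.92 in Col-0 (SD, n = 3 each, log2 0.01, edgeR adjusted p = 0.988). *MPK3*, a kinase activated by pattern receptors, had 66.7 ± 11.4 FPKM in *flpl1* and 140.0 ± 20.6 in Col-0 (log2 -0.92, adjusted p = 0.00185), short of 2-fold, and was the 1 gene of the list that limma called down. The adaptor kinase *SOBIR1* (log2 -0.12), *MPK6* (-0.04) and *MPK4* (0.55) were also not called, the last with an adjusted p of 0.0033. Of the genes that report pattern responses, 4 of 6 were tested. *WRKY29* rose (log2 1.13, adjusted p = 0.00898) and *FRK1*, named after its values were seen, fell (-2.76, adjusted p = 0.00381). *FRK1* was low in both groups, counted 7, 1 and 3 times in *flpl1* and 32, 24 and 28 times in Col-0. *WRKY33* (0.09) and *CYP81F2* (1.34, adjusted p = 0.0733) were not called and *PHI-1* was not tested. *SOBIR1*, *MPK6*, *FRK1* and *WRKY33* are on Chr. 2, of which *flpl1* carries an additional copy.

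Of the genes of apoplastic ROS, 4 of 5 were tested and 1 was called up. This was the peroxidase *PRX33* (log2 5.97, adjusted p = 6.08e-04), counted 29, 50 and 51 times in *flpl1* and 0, 2 and 0 times in Col-0. The oxidase *RBOHD* (log2 -0.07), *RBOHF* (-0.21) and the peroxidase *PRX34* (-0.10) were not called. The plasmodesmata-located proteins, which share the DUF26 domains of the CRKs but lack a kinase, had 7 of 8 genes tested, with 4 called up and 1 down. *PDLP3* rose from 1.29 ± 0.725 to 22.0 ± 5.28 FPKM (log2 4.21, adjusted p = 2.91e-04), *PDLP6* (log2 1.11, adjusted p = 0.0025) and *PDLP2* (log2 4.58, adjusted p = 1.48e-04) rose as well, and *PDLP5*, known to restrict plasmodesmata in SA responses, fell (log2 -1.42, adjusted p = 0.00292). *PDLP3* and *PDLP6* are on Chr. 2, of which *flpl1* carries an additional copy, and the part of that copy in their rise was not tested. Of the wall-associated kinases, another family of membrane kinases, 3 of 5 were tested: *WAK2* rose (log2 1.07, adjusted p = 0.00503), whereas *WAK1* (-0.02) and *WAK3* (0.73, adjusted p = 0.126) were not called. *WAK4* had a count of at most 6 in a library and was not tested.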

How the data were processed

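Leaf RNA-seq libraries of 3 *flpl1* and 3 Col-0 plants were used, 1 per plant. Reads were trimmed by the authors (Cutadapt 1.9.1), placed on TAIR10 by HISAT2 and assigned to genes by HTSeq 0.6.1. The deposited counts are raw read counts per gene, and the deposited FPKM is that count divided by exonic length and library total, as 100% of the values were within 0.01 of the recomputed value. The annotation version and strand setting are not given in the sources used here. Totals of 19465078 to 24633070 counts and 3 plants per group set the precision.

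Counts were tested with edgeR 4.0.16 in R 4.3.3 (TMM, filterByExpr, quasi-likelihood test, Benjamini-Hochberg over 18638 tested genes; 95% intervals), after the script was tested on simulated data. The edgeR p-values set the difference between the groups against the spread between these plants, with each gene's variance estimated partly from the other genes. Genes were called at an adjusted p under 0.05 and at least 2-fold. limma 3.58.1 and DESeq2 1.42.0 were alternatives, with other filters and scalings, the replicate block, and each library left out. Sequences were read from TAIR10.1, whose annotation holds 31545 of the listed gene IDs. Figures were drawn with matplotlib 3.10.9, and coding sequences aligned with Biopython 1.88.

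The members and lists were chosen with earlier results of these data known. The text names all 10 members, the 5 other CRK genes with the highest mean FPKM and any called against the direction of most called members, up to 4 genes of highest mean FPKM per list, the nearest gene on each side of the array, and the 3 genes most like the member with the highest FPKM. Outside this rule, *CRK16*, *CRK36* and *FRK1* were named after their values were seen. *CRK9* and *CRK22* were named for shared windows, and FLS2 for its link to CRK products. *PR1*, *PR5*, *PBS3* and *PAD4* were named to complete the calls of the SA list.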

Additional observations from a re-analysis of the deposited data

How the results depend on the processing

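*CRK4* and *CRK6* kept direction and call under every alternative run, and *CRK8* under each one in which it was tested. With a mean FPKM of at least 1 required, *CRK7*, *CRK8* and *CRK13* were not tested, which left 2 members called down and 2 up. Leaving out each library in turn gave log2 fold changes of -1.85 to -1.45 for *CRK4*, 1.0 to 1.78 for *CRK5*, -1.85 to -1.64 for *CRK6*, -0.28 to 0.43 for *CRK7*, -3.25 to -2.90 for *CRK8*, 0.13 to 0.83 for *CRK10*, -1.38 to -0.52 for *CRK11*, 0.50 to 1.15 for *CRK13*, -0.30 to 1.05 for *CRK14* and 0.89 to 1.59 for *CRK15*. The members called up then numbered 0 (without *flpl1* replicate 3) to 3 (without Col-0 replicate 1), those called down 3 to 4, all tested genes called up 3498 to 4092, and those called down 2506 to 2922. *CRK5* lost its call without *flpl1* replicate 3 (1.0), and so did *CRK15* (0.89). *CRK11* gained a call without Col-0 replicate 2 (-1.38), and *CRK14* gained one without Col-0 replicate 1 (1.05), but had a negative sign without *flpl1* replicate 3 (-0.25), Col-0 replicate 2 (-0.30) or replicate 3 (-0.23). *CRK7* had a negative sign without *flpl1* replicate 1 (-0.28). With limma, *CRK7* was -0.02 on log2(FPKM + 1) and -0.12 on log2(FPKM + 0.1), and with 1 added *CRK15* was 0.87, which left 1 member called up. DESeq2 called *CRK11* down (-1.05). With no fold limit, 5753 tested genes were up and 5720 down. The cause of these differences was not tested, except that fewer plants were fitted where 1 was left out.

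Centring on the genes outside Chr. 2 moved the median log2 fold change of all genes to 0.10, and limma moved it to -0.12 and -0.14, with 1 and 0.1 added. No pairing by replicate number was seen: same-numbered plants had correlations of 0.03, -0.12 and 0.10 of their deviations, and differently numbered plants had -0.14 to 0.14. With the replicate block, 2 members were called up and 3 down, *CRK5* was 1.43, *CRK15* 1.17 and *CRK4* -1.70, and all tested genes gave 3656 calls up and 2623 down. Low counts limit *CRK7*, *CRK8* and *CRK13*.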
